A study of Mus musculus with 20 samples.

Results

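The REV-ERB and ROR nuclear receptors are the transcription factors that act on ROR response elements (ROREs). They were taken by gene symbol from a list of members: Nr1d1 (REV-ERBα), Nr1d2 (REV-ERBβ), Rora (RORα) and Rorb (RORβ). These are 4 of the 24062 gene symbols counted, and all 4 passed the filter on low counts. Messenger RNA was measured by RNA sequencing of dermal lymphatic endothelial cells (LECs), sorted as CD31+podoplanin+ cells from the ear skin of wild type C57BL/6 mice at post natal day 56, which the methods describe as males of the C57BL/6N substrain. Cells were taken at zeitgeber times (ZT, hours after light onset) 1, 7, 13 and 19, so that ZT1 and ZT7 fall in the light phase and ZT13 and ZT19 in the dark phase. Each time point had 5 libraries, each from the pooled ears of a pair of mice, and n below counts these pools. No treatment or genetic change was used, all groups shared the strain, age and tissue, and cabinets with shifted light cycles were used in the study to sample different times together.

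REV-ERB and ROR proteins compete for the same DNA elements. RORs activate from an RORE, whereas REV-ERBs, which bind heme and recruit the NCoR-HDAC3 corepressor, silence it. Their best known shared target is Arntl, which encodes BMAL1, and BMAL1 with CLOCK in turn activates Nr1d1 and Nr1d2 through E-boxes, so that the receptors close a stabilizing loop of the circadian clock.

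In these cells, the REV-ERB transcripts had their highest means in the day and evening, Nr1d1 at ZT7 and Nr1d2 at ZT13, and both were lowest at ZT19. Rora had its lowest mean at ZT13 and its highest at ZT19, and Rorb was scarce and uneven between libraries. The number of receptors that differed across the 4 times of day was 0 of 4 by the quasi-likelihood test of edgeR (Benjamini-Hochberg adjusted over all 19209 genes tested), where 0.422% of all genes passed. Before adjustment, 2 of the 4, Nr1d2 and Rora, had p under 0.05, as had 15.7% of all genes. DESeq2 called 1 of the 4, Nr1d2, and 3.77% of the genes to which it gave an adjusted p.

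Matches to the letters of the RORE core near the starts of these receptors and of clock genes are shown first. Binding to them was not measured. In the promoter windows of RefSeq (GRCm38.p6, 250 bases before to 50 after a start), where all 4 receptors and the 5 clock genes known as RORE targets had at least 1 window, 4 matches to the RORE core letters AGGTCA were found on either strand. Each is given 5′ to 3′ on the strand that reads AGGTCA, with 10 bases on each side and the core in capitals:
Nr1d2: ttggaagaagAGGTCAggaccgctcg
Arntl: ggcagaaagtAGGTCAgggacggagg
Nfil3: gtgtgttagtAGGTCAgttccgagcg
Clock: gtcatctgtcAGGTCAgaggccaaag
The core letters were present in 16.26% of the 32817 promoter windows, so that a match on its own is common. Clock had 3 windows searched, Arntl and Rorb had 2 each, and each other gene had 1. The Nr1d2 match, at chr14:18239168-18239193 (minus strand), has its core 77 to 72 bases upstream of the RefSeq start (-77 to -72) and lies in no annotated gene. The Arntl match, at chr7:113207532-113207557 (plus strand), has its core at bases 32 to 37 after the start, in an untranslated exon. It also fitted the extended RORE with its A/T-rich 5′ flank, which only 0.3839% of windows held and none of the other windows searched for these genes did. The Nfil3 match at chr13:52981036-52981061 (plus strand as printed, opposite to the gene) lies in an exon annotated as untranslated, and the Clock match at chr5:76303606-76303631 (plus strand as printed, opposite to the gene) in an intron.

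The canonical E-box CACGTG was found in no window of the 4 receptors and in 1 of the 5 RORE targets, Cry1, at -60 to -55, against 7.149% of all windows. The D-box letters TTATGTAA and TTACGTAA, the site of DBP, TEF, HLF and NFIL3, were searched likewise. They were found in 1.054% of all windows and in none of these genes, and the variant core GGGTCA, held by 13.69% of windows, was in none either. These searches cover 300 bases at each start and say nothing of sites elsewhere in the genes. The 250 bases upstream of the RefSeq start of each REV-ERB gene are printed because the 2 promoters differ in these letters, with the AGGTCA of Nr1d2 in capitals. They lie on the minus strand at chr11:98775378-98775627 for Nr1d1 and at chr14:18239107-18239356 for Nr1d2:
Nr1d1: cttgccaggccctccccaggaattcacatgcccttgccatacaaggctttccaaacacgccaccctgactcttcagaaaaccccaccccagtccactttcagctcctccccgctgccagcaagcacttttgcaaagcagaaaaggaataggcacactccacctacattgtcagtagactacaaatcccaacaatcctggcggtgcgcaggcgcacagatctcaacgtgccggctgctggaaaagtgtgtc
Nr1d2: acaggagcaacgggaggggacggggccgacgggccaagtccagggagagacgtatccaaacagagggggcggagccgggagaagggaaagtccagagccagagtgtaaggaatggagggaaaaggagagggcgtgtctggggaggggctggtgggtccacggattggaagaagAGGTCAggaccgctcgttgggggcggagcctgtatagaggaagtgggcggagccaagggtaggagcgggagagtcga

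Nr1d1 encodes REV-ERBα, the more widely studied of the repressors, and lies at chr11:98767932-98775333 on the minus strand (mm10). Its normalized counts at ZT1 were 1606, 1158, 1362, 1133 and 1233 in replicates 1 to 5. At ZT7 they were 1607, 2479, 1925, 1304 and 1940. At ZT13 they were 1067, 757, 1061, 1014 and 2241, and at ZT19 they were 1335, 1655, 1198, 577 and 638. The ZT7 libraries stood mostly above the others, yet every pair of time points overlapped: replicate 4 of ZT7 lay below single libraries of each other time point. Replicate 5 of ZT13 lay above 4 of the 5 ZT7 libraries, and replicates 4 and 5 of ZT19 lay far below the other 3 of ZT19. The means were 1298 ± 194 (SD, n = 5) at ZT1 and 1851 ± 438 at ZT7 in the light, and 1228 ± 580 at ZT13 and 1081 ± 463 at ZT19 in the dark. Without replicate 5 of ZT13, the most deeply sequenced library, the ZT13 mean was 975 ± 147 (n = 4).

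The largest difference of Nr1d1 was that between ZT7 and ZT19, a log2 fold change of -0.78 ± 0.33 (SE) or a 1.71-fold lower level at ZT19, which did not pass the test over all genes (quasi-likelihood test of edgeR, Benjamini-Hochberg adjusted p = 0.205). Across the 4 times of day Nr1d1 had an adjusted p of 0.461 in the same edgeR fit (0.126 unadjusted). A curve with a period of 24 h fitted to its counts had its peak at 6.61 h and an amplitude of 0.39 on the log2 scale, below the median amplitude of 0.52 over all genes tested, and an adjusted p of 0.575 (edgeR). The peak moved between 5.27 h, without replicate 5 of ZT13, and 8.31 h, without replicate 3 of ZT13.

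Nr1d1 shares sequence with its neighbour Thra, which encodes the thyroid hormone receptor α. The last 1075 bases of the Nr1d1 gene, chr11:98767932-98769006, are also annotated as Thra on the opposite strand, and 263 bases of exon, 8.55% of the exon length of Nr1d1, belong to both. The library kit does not mark strand, so reads in these bases cannot be assigned to either gene, and how the counting treated them is not given in the sources used here. Thra itself had its highest mean at ZT1, with 1440 ± 289 normalized counts, against 781 ± 373 at ZT7 in the light, and 801 ± 258 at ZT13 and 654 ± 348 at ZT19 in the dark. The log2 ratio of Nr1d1 to Thra within a library was -0.14 ± 0.46 (SD, n = 5) at ZT1 and 1.35 ± 0.92 at ZT7 in the light, and 0.59 ± 1.14 at ZT13 and 0.74 ± 1.32 at ZT19 in the dark. The means of the neighbours therefore followed different orders over the day.

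**Figure D1:**
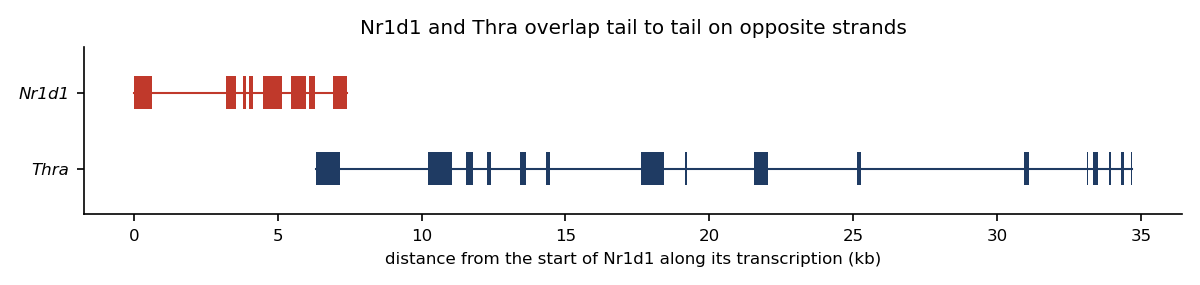
Map of the annotated exons (boxes) and spans (lines) of Nr1d1 and Thra, drawn to scale in kb from the start of Nr1d1 along its direction of transcription. The genes run towards each other, and their 3′ ends share 263 bases of exon.

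Nr1d2 encodes REV-ERBβ, the close relative of REV-ERBα that silences largely the same targets, and lies at chr14:18204054-18239127 on the minus strand. Its promoter, shown above, carries an AGGTCA. Normalized counts of Nr1d2 at ZT1 were 882, 795, 574, 1094 and 1099 in replicates 1 to 5. At ZT7 they were 1387, 1502, 1712, 847 and 1250. At ZT13 they were 1626, 1731, 1712, 711 and 1200, and at ZT19 they were 448, 786, 1065, 744 and 426. At both ZT7 and ZT13, 4 of 5 libraries lay above all 5 of ZT19, and replicate 4 was the low one at both. The means were 889 ± 220 at ZT1 and 1340 ± 323 at ZT7 in the light, and 1396 ± 439 at ZT13 and 694 ± 265 at ZT19 in the dark (SD, n = 5 each).

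From ZT13 to ZT19, Nr1d2 was lower by a log2 fold change of -1.01 ± 0.32 (SE), or 2.01-fold, with an adjusted p of 0.0980 by the quasi-likelihood test of edgeR (Benjamini-Hochberg adjusted). From ZT7 to ZT19 the log2 fold change was -0.95 ± 0.32, with an adjusted p of 0.122 (edgeR). Between ZT7 and ZT13, the time points with the highest means, it was 0.06 ± 0.32. The fitted 24-h curve peaked at 9.30 h, 8.97 to 9.64 h with each library left out in turn, with an amplitude of 0.58 on the log2 scale. Its unadjusted p was 0.00682, and its adjusted p was 0.415 (edgeR).

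Nr1d2 was the receptor whose call depended on the tool. DESeq2, with its own scaling and filter, gave Nr1d2 an adjusted p of 0.0184 across the 4 times of day and of 0.0314 for the 24-h curve. Its log2 fold changes were -1.15 from ZT7 to ZT19 (adjusted p = 0.00858) and -1.18 from ZT13 to ZT19 (DESeq2, adjusted p = 0.00758). Of the genes to which it gave an adjusted p, DESeq2 called 12.2% in the first of these pairs and 9.68% in the second, against 0.0156% and 0.588% by edgeR.

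**Figure D2:**
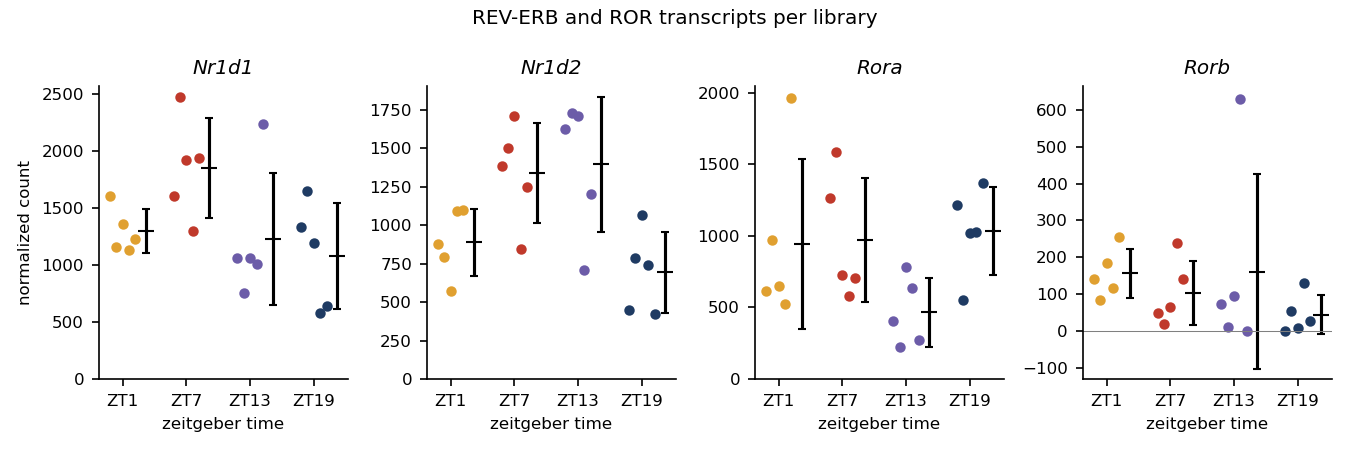
Normalized counts of Nr1d1, Nr1d2, Rora and Rorb in each library (points, 5 per time point), with the mean (dash) and SD (bar) to the right of each group. The vertical axes differ between genes, and the groups of every gene overlap at every pair of time points.

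Rora encodes RORα, the ROR with the broadest range of tissues, and spans 734 kb at chr9:68653786-69388246 on the plus strand. Normalized counts of Rora at ZT1 were 615, 970, 653, 525 and 1959 in replicates 1 to 5. At ZT7 they were 1261, 1582, 726, 581 and 702. At ZT13 they were 403, 226, 785, 639 and 273, and at ZT19 they were 1217, 553, 1019, 1024 and 1366. The 3 lowest of the 20 libraries were all from ZT13, and the highest was replicate 5 of ZT1, without which the ZT1 mean was 690 ± 194 (n = 4) in place of 944 ± 592 (SD, n = 5). The other means were 970 ± 431 at ZT7 in the light, and 465 ± 240 at ZT13 and 1036 ± 306 at ZT19 in the dark.

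The Rora mean at ZT19 exceeded that at ZT13 by a log2 fold change of 1.16 ± 0.41 (SE), or 2.23-fold, with an adjusted p of 0.118 by the quasi-likelihood test of edgeR (Benjamini-Hochberg adjusted). Against ZT1 and ZT7, the ZT13 level of Rora differed by a log2 fold change of -1.02 ± 0.41 and -1.06 ± 0.41, with adjusted p of 0.740 and 0.9999 (edgeR). Across the 4 times of day its adjusted p was 0.291, and the fitted curve, with an amplitude of 0.51 and a peak at 0.65 h, had an adjusted p of 0.602 (edgeR).

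The Rora levels moved with markers of keratinocytes, the epidermal cells of the skin. Over 12 keratinocyte markers, all of them detected, the summed CPM (counts scaled to library size) were 3280 to 5507 at ZT1 and 7241 to 18365 at ZT7 in the light, and 841 to 3335 at ZT13 and 9867 to 15272 at ZT19 in the dark, and 7 of the 12 differed across the 4 times of day in the edgeR test, against 0.422% of all genes. ZT13, the time of the lowest Rora mean, was also the time of the lowest keratinocyte sum. With a keratinocyte marker score as a covariate, the ZT13 to ZT19 log2 fold change of Rora was 0.48 in place of 1.16 (edgeR, adjusted p = 0.729). That of Nr1d2 was -0.90 in place of -1.01 in the same fit. The keratinocyte sums of ZT13 and ZT19 did not overlap, so this fit cannot fully separate the score from these time points. Among all genes, the calls across the 4 times of day were lost in it. The genes whose log2 normalized counts followed Rora most closely over the 20 libraries included Edaradd (Pearson r = 0.86), Gdpd2 (0.85), Krtdap (0.85) and Klf5 (0.85). Krtdap is a product of differentiating keratinocytes, Edaradd encodes the adaptor of the ectodysplasin receptor of skin appendages, and Klf5 is a transcription factor of epithelia. The gate on CD31, which keratinocytes lack, is meant to remove them, and the methods describe a purity check after each sort. In bulk RNA, fewer cells of a type and less RNA per cell cannot be told apart, and the part of keratinocyte RNA in the Rora levels was not tested beyond this covariate.

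Rorb encodes RORβ, best known from retina and brain, and lies at chr19:18930605-19111196 on the minus strand. Normalized counts of Rorb at ZT1 were 142, 83.9, 183, 118 and 256 in replicates 1 to 5. At ZT7 they were 49.2, 20.6, 65.6, 238 and 141. At ZT13 they were 72.5, 11.7, 95.2, 628 and 0, and at ZT19 they were 0, 53.9, 9.69, 132 and 26.5. Replicate 5 of ZT13 and replicate 1 of ZT19, both deeper than the median library, had 0 counts, which allows up to 0.648 and 0.766 normalized counts (3 counts each), whereas replicate 4 of ZT13 had 589 raw counts. The means were 157 ± 66.5 at ZT1 and 103 ± 87.6 at ZT7 in the light, and 161 ± 264 at ZT13 and 44.3 ± 52.9 at ZT19 in the dark (SD, n = 5 each).

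Rorb at ZT19 had a log2 fold change of -1.87 ± 1.23 (SE) against ZT13, with an adjusted p of 0.409 by the quasi-likelihood test of edgeR (Benjamini-Hochberg adjusted). Without replicate 4 of ZT13 the ZT13 mean was 44.8 ± 46.2 (n = 4) and the log2 fold change was -0.01. Without replicate 4 of ZT19 the ZT19 mean was 22.5 ± 23.6 (n = 4) and the log2 fold change was -2.83. The adjusted p was 0.747 across the 4 times of day and 0.898 for the 24-h curve (edgeR), and its fitted peak depended on the fit: 7.15 h, 3.21 h without replicate 4 of ZT13, and 19.2 h with the genic share of reads as a covariate.

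Over the 6 pairs of time points and the 4 receptors, 0 of 24 comparisons passed the quasi-likelihood test of edgeR (Benjamini-Hochberg adjusted), 6 had an unadjusted p under 0.05 and DESeq2 called 2, both of Nr1d2. The 6 were Rora in ZT13 against ZT1, ZT7 and ZT19, Nr1d2 in ZT19 against ZT7 and ZT13, and Nr1d1 in ZT19 against ZT7. At that unadjusted threshold lay 5.37% of all genes for ZT1 and ZT13, 2.59% for ZT7 and ZT13, 19.7% for ZT7 and ZT19 and 19.2% for ZT13 and ZT19, and 4.97% and 21.6% for ZT1 against ZT7 and ZT19. Of all genes, edgeR called 0.00521% between ZT1 and ZT7, 0.0208% between ZT1 and ZT13, 0.0156% between ZT1 and ZT19, 0.0937% between ZT7 and ZT13, 0.0156% between ZT7 and ZT19 and 0.588% between ZT13 and ZT19. By DESeq2 these shares were, in the same order, 0.0854%, 0.79%, 10.8%, 0.639%, 12.2% and 9.68%. In 0 of the 24 comparisons were the 5 libraries of one time point all above the 5 of the other. In the same order of pairs, 1.75%, 1.47%, 8.56%, 1%, 1.94% and 2.48% of all genes were separated in this way. For the 24-h curve, 0 of 4 receptors passed in edgeR, against 0.0312% of all genes, 1 had an unadjusted p under 0.05, as had 9.23% of all genes, and DESeq2 called 1, against 0.791%.

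**Figure D3:**
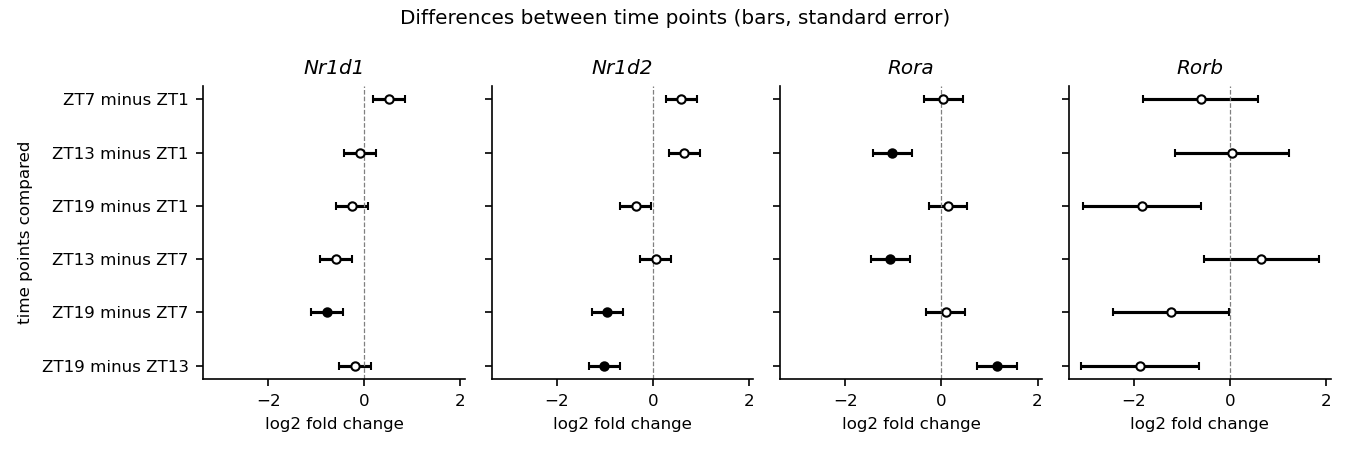
Log2 fold changes (points) with their standard errors (bars) from edgeR for the 6 pairs of time points and the 4 receptors, on 1 common axis. Filled points had an unadjusted p under 0.05, which 6 of the 24 had, and none of the differences of Rorb did.

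Per kilobase of exon, a scale on which genes can be compared, the normalized level over all 20 libraries was 443 ± 164 (SD) for Nr1d1, 200 ± 78.5 for Nr1d2, 65.3 ± 34.1 for Rora and 10.5 ± 12.8 for Rorb. The REV-ERB genes were thus measured at higher levels than Rora and Rorb, and within each gene the spread over libraries was wide.

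Ratios of counts within a library do not depend on how libraries were scaled, and are given as log2 values without a test. Nr1d1 exceeded Nr1d2 in all 5 libraries of ZT1 and of ZT7, with ratios of 0.57 ± 0.49 and 0.47 ± 0.26 (SD, n = 5), in 2 of 5 at ZT13, with -0.22 ± 0.88, and in 4 of 5 at ZT19, with 0.61 ± 0.76. The log2 ratio of Rora to Nr1d2 was -0.06 ± 0.74 at ZT1 and -0.53 ± 0.53 at ZT7 in the light, and -1.67 ± 1.06 at ZT13 and 0.60 ± 0.94 at ZT19 in the dark. At ZT13, Rora counts were below those of Nr1d2 in all 5 libraries, and at ZT19 above them in 3 of 5. The ratio of Rora to Nr1d1 had its lowest mean at ZT13 too, -1.46 ± 1.03, and its highest at ZT19, -0.0048 ± 1.06.

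Arntl, the RORE target whose sequence is shown above, had 389 ± 149 normalized counts at ZT1 and 217 ± 106 at ZT7 in the light, and 112 ± 76.9 at ZT13 and 350 ± 110 at ZT19 in the dark (SD, n = 5 each). The fitted curve of Arntl had its peak at 23.6 h and an amplitude of 0.96. Adjusted p-values were 0.224 across the 4 times of day and 0.415 for the curve (quasi-likelihood test of edgeR, Benjamini-Hochberg adjusted). Its means were higher at ZT1 and ZT19, where those of Nr1d2 were lower, and lower at ZT7 and ZT13, where those of Nr1d2 were higher. The log2 ratio of Arntl to Nr1d1 was -1.82 ± 0.62 at ZT1 and -3.16 ± 0.35 at ZT7 in the light, and -3.84 ± 1.27 at ZT13 and -1.57 ± 0.40 at ZT19 in the dark. In every library of ZT19, from -1.85 upwards, this ratio lay above those of ZT7, up to -2.61, and of ZT13, up to -2.44. The ratio of Arntl to Nr1d2 ran from -4.06 ± 1.71 at ZT13 to -0.97 ± 0.79 at ZT19, with -1.25 ± 0.47 at ZT1 and -2.69 ± 0.57 at ZT7. For Nr1d2, ZT19, from -2.04 upwards, overlapped with ZT7, up to -1.89, but not with ZT13. Over the 6 ratios computed and the 6 pairs of time points, the libraries did not overlap in 5 of 36 comparisons, 3 of Arntl to Nr1d1 and 2 of Arntl to Nr1d2. The share over ratios of other genes was not computed, so nothing is read from this count.

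**Figure D4:**
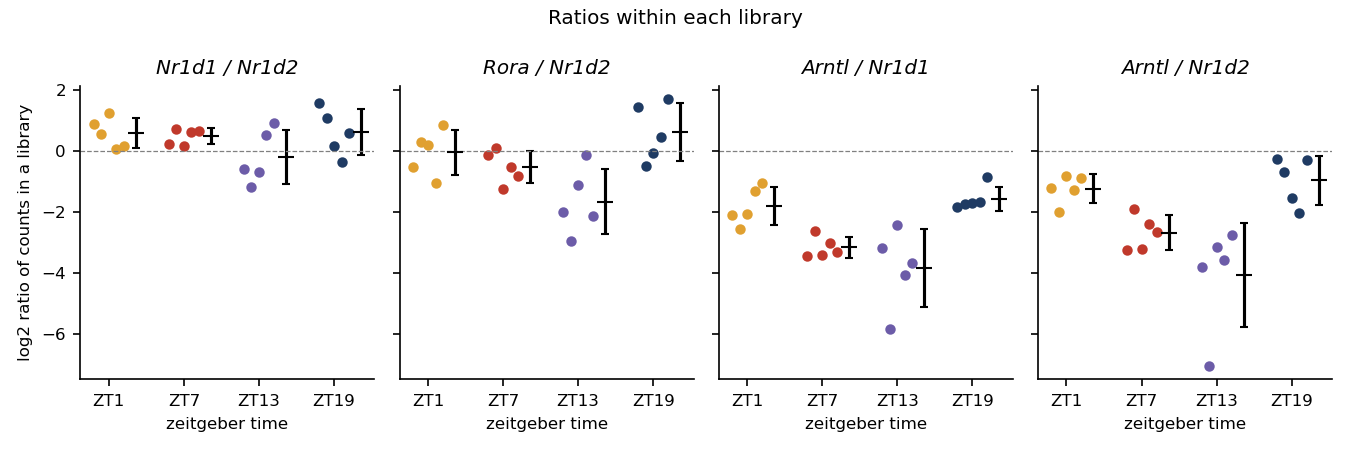
Log2 ratios of the counts of 2 genes within each library (points, 5 per time point), with the mean (dash) and SD (bar); the dashed line marks equal counts. Arntl relative to Nr1d1 was lower in every library of ZT7 and ZT13 than in any of ZT19, whereas Arntl relative to Nr1d2 overlapped between ZT7 and ZT19.

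The clock genes known as RORE targets, Arntl, Clock, Npas2, Cry1 and Nfil3, numbered 0 of 5 past edgeR's test in either form, with 4 of 5 at an unadjusted p under 0.05 across the 4 times of day and 3 of 5 for the curve. Of all genes, 0.422% and 0.0312% passed these tests, and 15.7% and 9.23% had an unadjusted p under 0.05. Cry1, a repressor of CLOCK-BMAL1, had its highest mean at ZT19, 768 ± 479 normalized counts, against 271 ± 137 at ZT7. Nfil3, a D-box repressor, was lowest at ZT7, 203 ± 76.4, against 542 ± 328 at ZT13 and 509 ± 176 at ZT19. Clock, the partner of BMAL1, had a mean of 1453 ± 502 at ZT1 and 667 ± 265 at ZT19, and Npas2, which can stand in for it, was low, at 59.1 ± 38.9 over all libraries. The fitted peaks of Cry1 and Nfil3, 18.3 h and 17.9 h, lay later than those of Nr1d1 and Nr1d2 and before that of Arntl. The list held no single phase, as Clock peaked at 2.98 h and Npas2 at 6.56 h, close to Nr1d1 at 6.61 h.

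**Figure D5:**
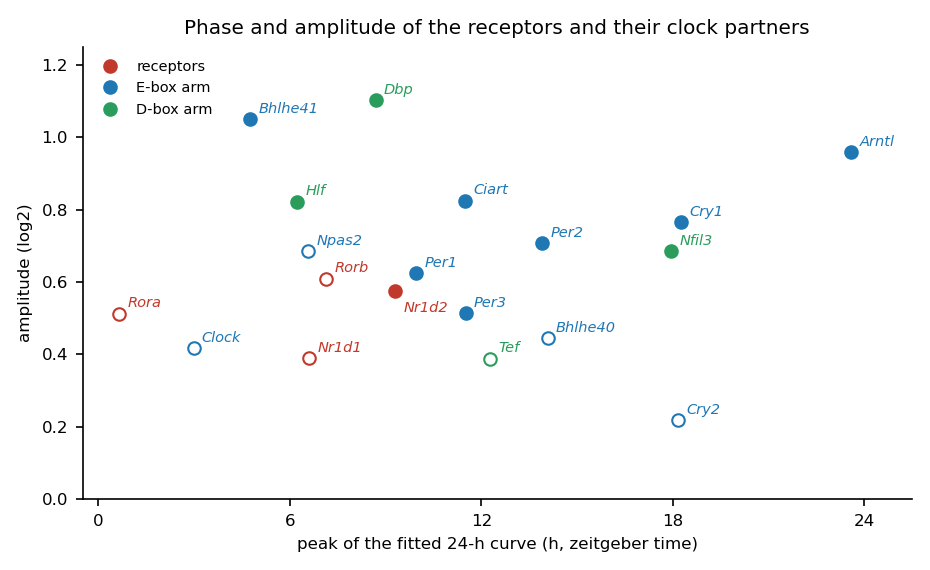
Peak time (h) and amplitude (log2) of the fitted 24-h curve for the 4 receptors and the genes of the E-box and D-box arms of the clock. Filled points had an unadjusted p under 0.05 for the curve; the REV-ERB genes lie between 6 and 10 h and Arntl at 23.6 h, and the peak of Rorb changed with the fit.

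Among the partner genes of the loop, few passed the tests over all genes. In the E-box arm (BMAL1, CLOCK, the PER, CRY and DEC proteins and their relatives), edgeR called 0 of 11 genes across the 4 times of day and 7 of 11 had an unadjusted p under 0.05, against 0.422% and 15.7% of all genes. The lists overlap: Arntl, Clock, Npas2 and Cry1 are also RORE targets counted above, as is Nfil3 of the D-box arm. Arntl, Clock and Cry1 are among the 7. In the D-box arm edgeR called 1 of 4 (0.422% of all genes), Dbp, which encodes an activator of D-boxes. Dbp had 766 ± 156 normalized counts at ZT7 and 192 ± 60.1 at ZT19, and its curve had a peak at 8.69 h, between those of Nr1d1 and Nr1d2, and an adjusted p of 0.0126 for the curve (quasi-likelihood test of edgeR, Benjamini-Hochberg adjusted). Across the 4 times of day, the adjusted p of Dbp was 0.00409, and 0.00446 to 0.0143 with each library left out in turn (edgeR), while that of the curve was 0.0536 without ZT7 replicate 3. Among 9 tested genes described as REV-ERB or ROR targets outside the clock, edgeR called 1, Elovl3, a fatty acid elongase, against 0.422% of all genes. Elovl3 had a mean of 119 ± 54.2 normalized counts at ZT13 and of 947 ± 1238 at ZT19, where single libraries ranged from 245 to 3153, and an adjusted p of 0.0253 across the 4 times of day (edgeR). This call rested on ZT19 replicate 5: in fits chosen after seeing the data, the mean at ZT19 without it was 395 ± 127 (n = 4) and the adjusted p was 0.382 (edgeR). The adjusted p of Elovl3 was also 0.0620 without ZT13 replicate 4, and 0.0110 to 0.0476 without each of the other 18 libraries (edgeR). Its lowest mean fell at ZT13, as did those of Rora and of all 12 keratinocyte markers. Its highest fell at ZT19, as did those of Rora and of 8 of the 12 markers, while the other 4 were highest at ZT7, and with the keratinocyte score as a covariate the adjusted p of Elovl3 was 0.224 and that of Dbp 0.0572 (edgeR). The part of keratinocyte RNA in both genes was not tested beyond this fit, in which the calls of all genes across the 4 times of day were lost.

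The cofactors and regulators of the receptors gave no call. Across the day, the quasi-likelihood test of edgeR (Benjamini-Hochberg adjusted) called 0 of 6 corepressor genes (1 with an unadjusted p under 0.05, Hdac3), 0 of 6 ROR coactivator genes (1, Ep300) and 0 of 7 genes of REV-ERB stability and heme (2, Huwe1 and Fbxw7), where 0.422% of all genes were called and 15.7% had an unadjusted p under 0.05. Hdac3, the deacetylase that REV-ERBs recruit, had 637 ± 168 normalized counts at ZT7 and 1640 ± 713 at ZT19 (edgeR, adjusted p = 0.220). Ncor1, the corepressor that bridges REV-ERB and HDAC3, had an adjusted p of 0.625 (edgeR).

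As a description of the levels over the 20 libraries, the genes most like Nr1d1 were Slc35a5 (Pearson r = 0.77), Acap3 (0.75), Cdc14a (0.75), Exoc3l (0.75) and 1110032F04Rik (0.72), and the least alike were Dynll2 (-0.80), Ccdc59 (-0.75) and Mllt10 (-0.74). Nr1d2 was most like Rabgap1l (0.80), Mtfp1 (0.80), Sema3d (0.78), Zfp592 (0.77) and Trim36 (0.76). The genes least like Nr1d2 were Cdc20 (-0.86), Cdca8 (-0.82) and Cdk1 (-0.80), all of which act in mitosis. Rorb was most like Dnah11, Zfp827 and Rap1gap2 (0.93 each), Fam120c (0.91) and Sox11 (0.90), and least like Herpud1 (-0.89), Slc45a3 (-0.84) and Hbp1 (-0.84). The genes least like Rora were Sept1 (-0.77), Msantd2 (-0.77) and Apobec3 (-0.74). These values are across libraries that share time point, depth and scaling, over 12562 genes compared, and carry no test.

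The libraries held 4475111 to 42002363 reads counted on genes (median 9379794), and 12.7% to 81.6% of the reads on a gene or on no gene were on genes. This genic share was 20.2% to 29.5% at ZT1 and 12.7% to 62.3% at ZT7 in the light, and 20.1% to 79.9% at ZT13 and 35.0% to 81.6% at ZT19 in the dark. ZT7 replicate 2 (62.3%) and ZT13 replicate 5 (79.9%), the libraries with the highest Nr1d1, lay within the range of ZT19. The next highest, ZT7 replicates 5 and 3, had shares of 12.7% and 15.5%. ZT19 replicate 5, with a share of 64.9%, had only 638 normalized counts of Nr1d1. With the genic share as a covariate, the ZT7 to ZT19 log2 fold change of Nr1d1 was -1.29 (edgeR, adjusted p = 0.210), and the part of the share in the levels of the receptors was not tested beyond this fit. The LEC label was checked against 9 markers, whose summed CPM were 5236 to 10829 in every library. At ZT19 the LEC sum was 5236 to 8962, against 9867 to 15272 for the 12 keratinocyte markers, and at ZT7 the medians were 6171 and 8523. Lyve1, Prox1, Pdpn and Flt4 were all detected, and Ccl21a was at 0 in all 20 libraries. The summed CPM were 20.7 to 1489 for fibroblast markers, 34.8 to 191 for leukocyte markers and 636 to 2318 for blood endothelial markers.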

How the data were processed

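Reads were aligned by the authors to mm10 using STAR, and HTSeq 1.0.0 gave the raw counts per gene symbol that they deposited for each library. DESeq2 served for their own tests. The annotation and strand setting of the counting are not given in the sources used here. Totals for reads on no gene, ambiguous or unaligned reads were kept out of library sizes and tests. Here, edgeR 4.0.16 in R 4.3.3 was applied to the counts (TMM scaling, filterByExpr by time point, quasi-likelihood F-test) in 1 fit of all 20 libraries, across the 4 times of day, between pairs and for cosine and sine terms of 24 h. Genes were called at an adjusted p under 0.05 (Benjamini-Hochberg, 19209 genes). Normalized counts were obtained by scaling each library to the geometric mean of the effective library sizes. Ratios used a pseudocount of 0.5. The 3-count floor covers counting error only, since cDNA was amplified without molecular identifiers.

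Alternatives were DESeq2 1.42.0, other scalings and filters, robust dispersion, covariates, a replicate block and leaving out each library. Fits were tested on simulated data. Gene models came from GENCODE M21 and promoter windows from RefSeq. The receptors and all gene lists were chosen with earlier results of these data known. Named were the receptors, list genes past a test or needed as counterparts, overlapping genes and, per receptor, the 5 most and 3 least alike among genes with a mean of at least 50. Members of lists named for an unadjusted p (Hdac3, Ep300, Huwe1, Fbxw7) and Ncor1 were chosen after their values were seen. Some results for single genes are not reported here.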

Additional observations from a re-analysis of the deposited data

Results flagged for a closer look

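In 2 of the 16 groups of 5 libraries (4 receptors at 4 time points), 1 library stood apart on the scale of normalized counts, its gap to the nearest other exceeding 0.71 of the group's range, where chance gives 0.8 such groups. For Rorb at ZT13, replicate 4 (628) lay above the others by 0.848 of the range. For Nr1d1 at ZT13, replicate 5 (2241) lay above the others by 0.791 of the range. On the scale of log2(normalized count + 1), 0 of the 16 groups held such a library. Without its library, the adjusted p across the day was 0.697 for Rorb and 0.208 for Nr1d1 by edgeR.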

How the results depend on the processing

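By edgeR the 4 receptors gave 0 calls in each test under the other scalings, filters, covariates and robust dispersion, and with each of the 20 libraries left out. DESeq2 called 1 receptor across the 4 times of day, 1 for the 24-h curve and 2 of the 24 pairs. The median gene shifted by up to -0.28 on the log2 scale between ZT7 and ZT19 with upper-quartile factors, which changed no direction of a receptor tested. With the genic share of reads as a covariate, Rorb reversed from ZT13 to ZT19 (log2 fold change 1.18) and its curve peaked at 19.2 h, and the cause was not tested.

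Over all genes, 81 differed across the 4 times of day and 6 had a 24-h rhythm. These counts were 672 and 84 by DESeq2, 52 differing with upper-quartile factors, 49 and 3 with the share covariate, 0 differing with the keratinocyte covariate, and 30 to 178 and 0 to 10 with 1 library left out (lowest without ZT13 replicate 4, highest without ZT19 replicate 4 for the first). The labels do not say whether same-numbered replicates share more than a number. Mean correlations of their deviations were -0.04 to 0.17 between time points, with single values of 0.08 to 0.32 for ZT1 and ZT13. Differently numbered replicates were not compared. With a replicate block 31 and 0 genes passed, and 0 receptors. Elovl3 also lost its call with RLE factors (edgeR, adjusted p = 0.0509), upper-quartile factors (0.0663), the share covariate (0.290) and the block (0.191), as did the curve of Dbp with the block (0.0630). The biological coefficient of variation over all genes was 1.0, with 5 libraries per time point.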
